A study of Mus musculus with 6 samples.

Results

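The genes described are those of the major histocompatibility complex (MHC) and of antigen processing, in mouse mammary tumors and in sorted luminal mammary cells. Members were chosen by symbol: every gene whose platform symbol begins with H2-, hyphen included, together with B2m, Tap1, Tap2, Tapbp, Ciita, Nlrc5, Psmb8, Psmb9 and Psmb10. Cd74, which the rule also names, had no probe set naming it alone and was not analysed here. The rule gave 43 of the 22180 genes measured, from 47 probe sets: 23 class I genes (B2m included), 11 class II genes, 8 genes of peptide supply and MHC regulation, and H2-Ke6, a gene of the region that encodes no MHC chain. For 4 members with more than 1 probe set (H2-Q4, H2-Q5, H2-Q10 and Tapbp) the brightest was taken. A further 9 probe sets name a member together with another gene and were left out, so that H2-D1 and H2-Q7, for example, were not analysed here. RefSeq lists 5 members as transcribed pseudogenes (H2-Bl, H2-K2, H2-Q5, H2-T10 and H2-Ea), and class I genes are close relatives whose probes can share signal, so single class I values are uncertain in their identity.

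Expression was measured on 6 arrays. The K8wt group comprised replicates 1, 2 and 4 of luminal cells positive for yellow fluorescent protein (YFP). These were sorted from wild-type Rosa26-Stop-YFP females 10 to 14 days after Ad-K8-Cre, an adenovirus that expresses Cre recombinase from the keratin 8 promoter, was placed in the milk ducts. The Brca1Tumor group comprised tumors 23, 24 and 25, which arose months after the same virus in females with the genotype Trp53L/L;Brca1L/L and are called Trp53/Brca1-null in the labels. Virus and route were thus common to both groups, while the reporter allele is named for the controls only and sorting is described for them only. Ages are not given, and the labels do not state whether every tumor came from its own mouse. The p-values measure the spread between these samples. Values are log2 expression values, differences are tumor minus K8wt, and a gene passed when its p in limma, adjusted over all 22180 genes with the Benjamini-Hochberg method, was under 0.05. Arrays give no read depth, and their number, 3 a group, limits the precision.

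MHC class I molecules pair a heavy chain with beta-2 microglobulin and show peptides from the cell's own cytosol to CD8 T cells. Those peptides are cut by the proteasome and pumped into the endoplasmic reticulum by the transporter TAP. MHC class II molecules pair an alpha with a beta chain and show peptides from endosomes to CD4 T cells. Class I is made by nearly all nucleated cells. Class II is made chiefly by dendritic cells, macrophages and B cells, and epithelial cells can make it after interferon gamma.

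Promoters of both classes are known to carry an SXY module, whose X box binds the RFX complex, whose X2 box binds CREB-like factors and whose Y box (core CCAAT) binds NF-Y, with Ciita or Nlrc5 as the coactivator. The promoters shown are those of chains named in the results below, none of which passed the test between the groups. A link between these elements and the array values was not tested. Each line gives the 150 bases before a RefSeq start site (GRCm38.p6) on the gene's strand, with matches to the motifs searched in capitals. The motifs were CCAAT, the X box CTAGNAAC, the X2 box as TGACGTCA, TGATGTCA or TGCGTCA, the interferon response core GAAANNGAA, and the NF-kB motif GGGANTCCC, on both strands, so that ATTGG is CCAAT on the other strand. H2-K1 has a pair of start sites in the table and the one farther upstream is printed.
H2-Aa, chr17:34287824-34287973, minus strand: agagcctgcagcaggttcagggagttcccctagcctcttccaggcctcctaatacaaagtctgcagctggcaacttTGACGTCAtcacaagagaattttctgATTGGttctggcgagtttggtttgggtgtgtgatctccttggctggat
H2-Eb1, chr17:34305717-34305866, plus strand: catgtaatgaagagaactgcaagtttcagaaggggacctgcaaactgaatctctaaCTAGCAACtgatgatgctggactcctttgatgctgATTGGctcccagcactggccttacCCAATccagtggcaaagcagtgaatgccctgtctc
H2-K1, chr17:34000348-34000497, minus strand: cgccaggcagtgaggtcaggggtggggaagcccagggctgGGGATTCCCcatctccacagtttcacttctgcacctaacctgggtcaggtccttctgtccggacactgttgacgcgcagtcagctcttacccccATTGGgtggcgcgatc
B2m, chr2:122147537-122147686, plus strand: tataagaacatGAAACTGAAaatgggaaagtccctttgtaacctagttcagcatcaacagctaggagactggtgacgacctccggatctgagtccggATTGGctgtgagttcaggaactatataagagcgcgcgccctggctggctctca
H2-T23, chr17:36032702-36032851, minus strand: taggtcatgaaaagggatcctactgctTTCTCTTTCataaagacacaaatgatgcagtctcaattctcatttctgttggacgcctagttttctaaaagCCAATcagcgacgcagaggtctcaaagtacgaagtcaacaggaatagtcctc

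Of the 43 members, 31 had a promoter in the table. In the 250 bases before the start, CCAAT was present in 17 of 19 class I promoters (17 genes) and in 8 of 9 class II promoters (8 genes), against 33.8% of all 32851 promoters. The X box CTAGNAAC stood in 4 of 9 class II promoters, those of H2-DMb1, H2-Eb1, H2-Eb2 and H2-Ob, in 1 of 19 class I promoters and in 3.06% of all. The X2 box letters were in 1 class II promoter, that of H2-Aa (6.07% of all). GAAANNGAA was found for B2m and H2-T23 (7.13% of all promoters), and GGGANTCCC at both starts of H2-K1 (0.636% of all). In the lines above, the X or X2 box of H2-Eb1 and H2-Aa precedes CCAAT. H2-Ab1 had no entry. These matches describe letters and not binding.

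None of the member genes passed the test between tumors and luminal cells: 0 of 43 in limma, where 3.91% of all genes passed (2.52% higher and 1.39% lower in tumors). At an unadjusted p under 0.05, 5 members were higher and 9 lower, against 13.4% and 13.0% of all genes. The 3 tumor values all lay above the 3 K8wt values for 5 members (14.0% of all genes) and below them for 9 (22.4% of all genes). Over all genes, 9247 means were higher in tumors and 12933 lower, with a median difference of -0.12. The median difference was 0.31 over the 11 class II genes (7 means higher, 4 lower). For the 23 class I genes it was -0.33 (3 higher, 20 lower). Among genes averaging above the mean background mark (below), 6 of 8 class II means were higher and 9 of 12 class I means lower. Of all 12672 such genes, 7607 means were higher and 5065 lower. The class II median lay 0.64 above that of class I, a description with no test. Centring each array on housekeeping genes moved the median of all genes to -0.74 and every other difference by as much. The class II median became -0.32 and the class I median -0.96. The positive medians of the pathway lists given further on turned negative as well. The 13 measured housekeeping genes were themselves mostly higher in tumors (11 means higher, 2 lower, median 0.88), so that scaling lowers every difference. The 8 supply and regulator genes had a median of -0.28 (3 means higher, 5 lower). In bulk samples, fewer cells of a type and less RNA per cell cannot be told apart.

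**Figure D1:**
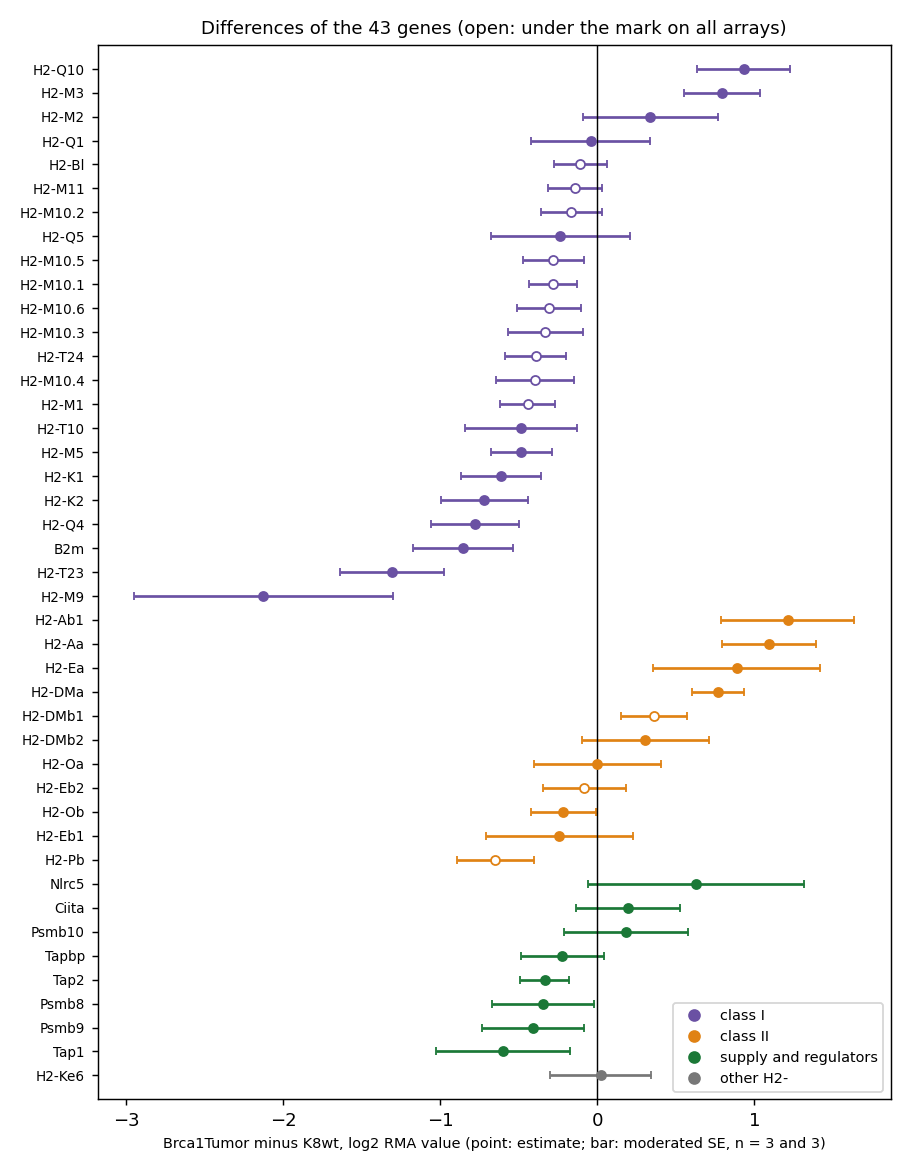
Tumor minus K8wt difference of each of the 43 genes in log2 units (point) with its moderated standard error (bar, n = 3 and 3), coloured by class; open points are genes under the background mark on all 6 arrays. H2-Ab1, H2-Aa, H2-Ea and H2-DMa lie between 0.77 and 1.21, while 20 of 23 class I genes lie below 0 (16 with repeated quantile normalization or cyclic loess).

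As a mark for background, the 95th percentile of 1105 olfactory receptor genes, which mammary tissue is not known to use, was taken on each array. It lay at 3.70 to 3.86 on K8wt arrays and at 3.24 to 3.45 on tumor arrays, so a gene at background also reads lower in tumors. Under it on all 6 arrays were 10 class I genes (H2-Bl, H2-M1, H2-M11, H2-T24 and the 6 H2-M10 genes) and 3 class II genes (H2-DMb1, H2-Eb2 and H2-Pb). Among genes whose mean over the 6 arrays exceeded the mean mark of 3.57, the median difference was -0.48 for 12 class I genes and 0.54 for 8 class II genes, against 0.21 for all 12672 such genes.

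The classical class II chains differed among themselves. H2-Ab1, the beta chain of the A molecule, read 8.69, 7.62 and 7.05 in K8wt replicates 1, 2 and 4 and 8.91, 9.33 and 8.74 in tumors 23, 24 and 25. The groups did not overlap, but K8wt replicate 1 came within 0.1 log2 unit of the lowest tumor. The difference was 1.21 ± 0.43 (SE), 2.32-fold (limma's adjusted p, 0.145).

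H2-Aa, the alpha chain that pairs with it, read 5.51, 4.72 and 4.56 in K8wt cells and 6.32, 5.96 and 5.78 in tumors. All tumors were above all K8wt samples, with replicate 1 again the highest control. Its difference was 1.09 ± 0.30 (SE), 2.13-fold, and the adjusted p in limma was 0.094.

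H2-Eb1, the beta chain of the E molecule, showed no such separation. Its K8wt values were 6.91, 5.33 and 5.13, and its tumor values 5.60, 5.69 and 5.36. Replicate 1 was the highest of the 6 arrays and the tumors fell between it and the other controls. The difference was -0.24 ± 0.47 (SE; adjusted p of 0.745 in limma); without K8wt replicate 1 it was 0.32 ± 0.21.

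H2-Ea, the alpha chain of E and a pseudogene in the reference annotation, read 4.59, 3.68 and 3.28 in K8wt cells, where only replicate 1 was above background. In tumors it read 4.98, 5.51 and 3.72, all above background. Tumors 23 and 24 exceeded every control and tumor 25 did not. The difference was 0.89 ± 0.53 (SE; limma's adjusted p, 0.314).

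Loading of class II is edited by H2-DM, which removes the placeholder peptide, and by H2-O, which inhibits H2-DM. H2-DMa, the alpha chain of H2-DM, had the lowest adjusted p of all 43 members. It read 6.50, 6.29 and 6.30 in K8wt cells and 7.23, 7.03 and 7.13 in tumors. Both groups were tight and did not overlap, with a difference of 0.77 ± 0.16 (SE), 1.70-fold, a 95% confidence interval of 0.37 to 1.16, and an adjusted p of 0.058 in limma. With array weights it passed (0.77 ± 0.16, adjusted p of 0.046), whereas centred on housekeeping genes its difference was 0.14; over all alternatives its adjusted p ran from 0.046 to 0.78.

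The beta chains of H2-DM did not share that separation. H2-DMb2 read 4.84, 3.18 and 3.89 in K8wt cells and 4.28, 4.23 and 4.32 in tumors, which lay inside the wide range of the controls (difference 0.31 ± 0.40, SE). Without K8wt replicate 1 the difference was 0.74, and without replicate 2 it was -0.09. H2-DMb1 stayed under the mark at 1.72 to 2.46 on every array.

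Of the H2-O chains, H2-Oa read 4.06, 4.52 and 4.05 in K8wt cells and 5.11, 3.63 and 3.88 in tumors, with tumor 23 highest and tumor 24 lowest and no net difference (0.00 ± 0.40, SE). H2-Ob was 4.01, 4.16 and 3.76 against 4.05, 3.58 and 3.66, close to the mark in both groups (-0.22 ± 0.21). H2-Eb2, a further E beta gene, read 2.25 to 3.17 over the 6 arrays, under the mark. H2-Pb read 2.11 to 3.25, also under the mark, so its lower tumor values are not told from background.

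**Figure D2:**
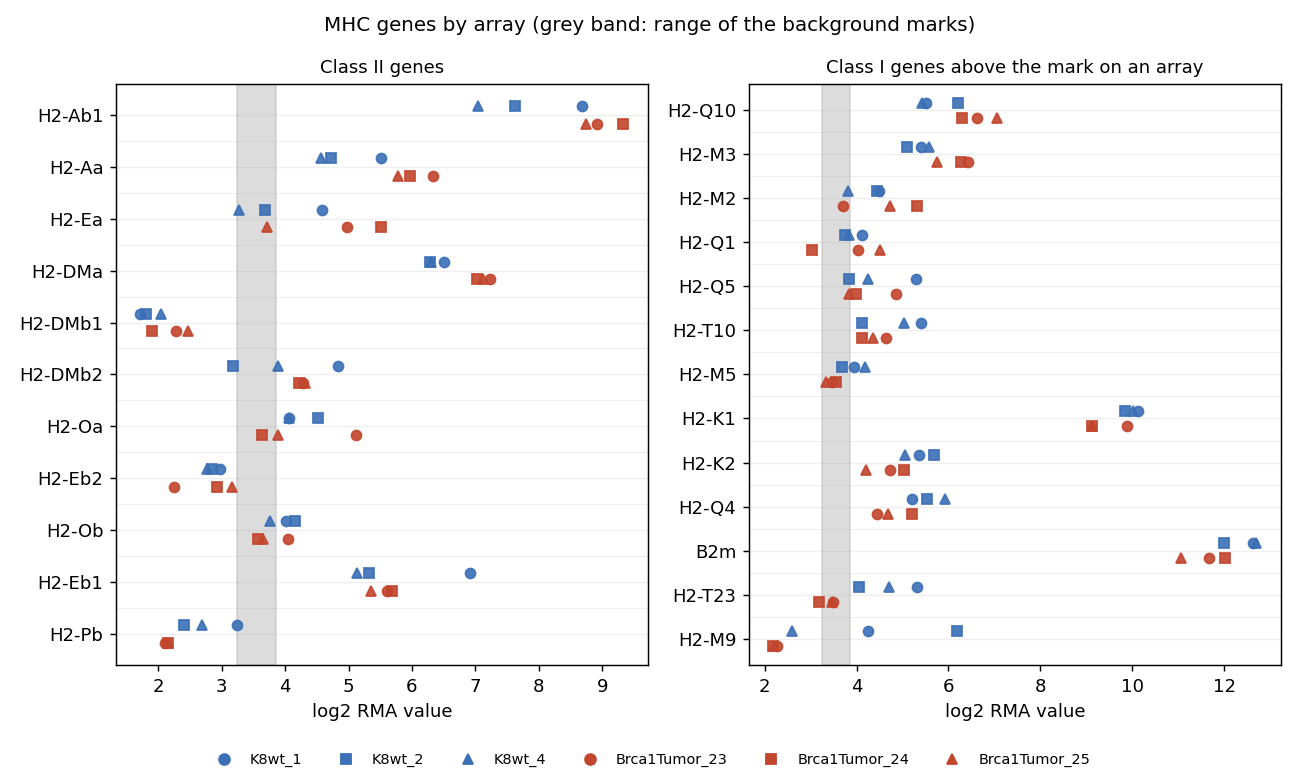
Log2 value on each array of the 11 class II genes (left) and of the 13 class I genes above the background mark on at least 1 array (right); blue marks are the 3 K8wt replicates, red marks the 3 tumors, and the grey band spans the array marks of 3.24 to 3.86. K8wt replicate 1 (blue circles) stands apart to the right for H2-Eb1, H2-Ab1, H2-Ea and H2-DMb2. The groups do not overlap for H2-Aa, H2-Ab1 and H2-DMa, higher in tumors (14.0% of all genes). Nor do they for H2-Pb, lower in tumors (22.4% of all genes) and under the mark on every array.

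The controls themselves were uneven for class II. K8wt replicate 1 was the highest of its group for 8 of 11 class II genes and replicate 4 the lowest for 7. Set against each gene's K8wt mean, the class II median was 0.46 in replicate 1, -0.16 in replicate 2 and -0.15 in replicate 4. The tumors stood at 0.42, 0.06 and 0.30 (tumors 23, 24 and 25), so replicate 1 lay above all 3 tumors. The class I median, at 0.03, -0.04 and 0.01 in K8wt cells and -0.33, -0.34 and -0.45 in tumors, separated the groups. Both sets include genes at background. Over the 8 class II genes with means above the mean mark, the medians were 0.66, -0.17 and -0.29 in K8wt cells. In tumors they were 0.89, 0.46 and 0.11, so replicate 1 lay inside the range of the tumors. Over the 12 such class I genes they were 0.16, -0.21 and 0.02 against -0.34, -0.41 and -0.62. All genes together stood between -0.02 and 0.00 in K8wt cells and between -0.14 and -0.11 in tumors.

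**Figure D3:**
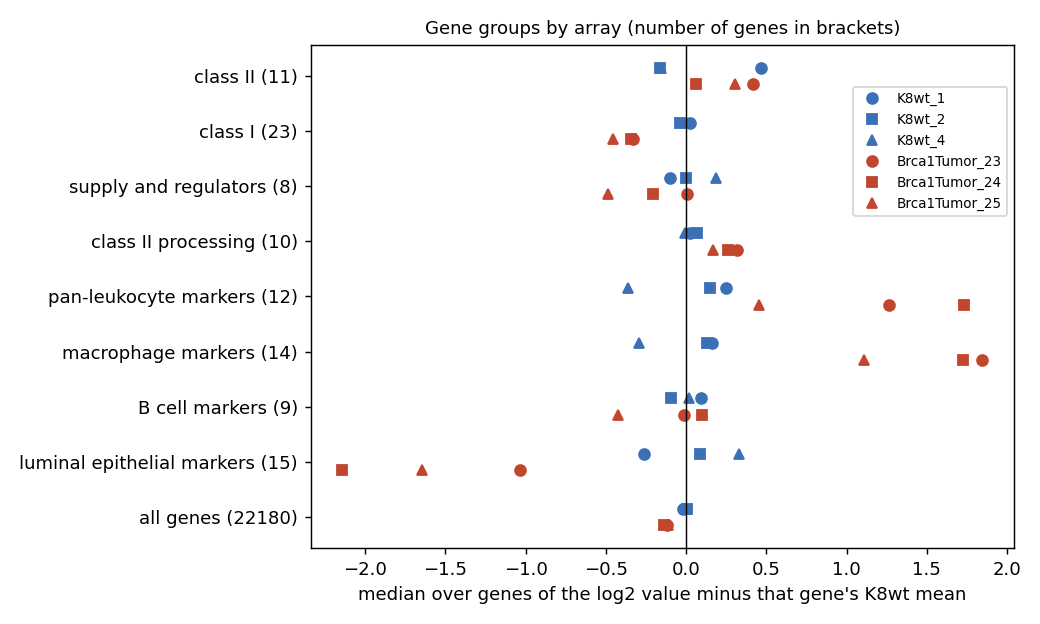
Median over the genes of a group of the log2 value minus that gene's K8wt mean, for each array (blue K8wt, red tumors; number of genes in brackets; the class II points of K8wt replicates 2 and 4 coincide). Class II in K8wt replicate 1 (0.46) lies above all 3 tumors (0.06 to 0.42), class I is lower in the 3 tumors (-0.45 to -0.33), and the macrophage markers are higher in all 3 (1.11 to 1.84). Genes at background are included. Over the 8 class II genes with means above the mean mark, tumor 23 (0.89) exceeded replicate 1 (0.66).

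Markers of leukocytes did not all go the same way. Pan-leukocyte and macrophage means were mostly higher in tumors, while 11 of 14 T and NK cell means and 5 of 9 B cell means were lower. Of 12 pan-leukocyte genes 12 had higher tumor means (9247 of all 22180 genes), by 0.16 to 3.07, but only 1 passed in limma. That was Fcer1g, the signalling chain of Fc receptors, which rose by 2.52 ± 0.35 (SE, adjusted p of 0.023 in limma). At an unadjusted p under 0.05, 6 were higher and 0 lower, against 13.4% and 13.0% of all genes. The mean level of the list was 5.10, 5.001 and 4.32 in K8wt replicates 1, 2 and 4 and 6.35, 6.37 and 5.34 in tumors. Of 14 measured macrophage genes 7 rose and 0 fell, where 2.52% of all genes rose: C1qa rose by 4.09 ± 0.37, C1qb by 4.03 ± 0.37, Csf1r, the receptor for the macrophage growth factor, by 2.67 ± 0.30, and the lysosomal protein Cd68 by 1.78 ± 0.33, with Adgre1, C1qc and Msr1, which were under the mark in all 3 K8wt samples. The list's mean level was 4.66, 4.62 and 4.09 in K8wt cells and 6.41, 6.10 and 5.76 in tumors. Of its gene means 12 were higher in tumors and 2 lower, those of Cd14 (-0.71 ± 0.66, SE) and Cd163 (-0.13 ± 0.17). Of the 14 genes, 2 rose without K8wt replicate 1 and without tumor 23, 3 without K8wt replicate 2 and without replicate 4, 6 without tumor 24, 7 without tumor 25, and 3 when centred on housekeeping genes. C1qa and C1qb passed in all 6 fits that left out an array, Adgre1 in 1 (1.37 to 1.61 in the others) and C1qc and Msr1 in 2 each (1.60 to 1.74 and 1.38 to 1.58 in the others). Csf1r lost its call without K8wt replicate 1 or tumor 23 (highest adjusted p of 0.058). Fcer1g lost its call without any 1 of K8wt replicates 1, 2 and 4 and tumor 23 (2.26 to 2.69, adjusted p up to 0.091), and Cd68 without any 1 array (1.43 to 1.98, adjusted p of 0.064 to 0.109) and under all 3 other scalings (1.15 to 1.59).

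Within the K8wt group the leukocyte gene Ptprc, which encodes CD45, read 5.59, 5.36 and 3.89, and Cd68 read 6.75, 6.66 and 5.64, each highest in replicate 1 and lowest in replicate 4, as for H2-Aa, H2-Ab1, H2-Ea and H2-Eb1. These genes were chosen after their values were seen, and that order held for 6 of the 12 pan-leukocyte genes and 7 of the 14 macrophage genes. Replicate 4 was the lowest control for 9 and 11 genes of the 2 lists, and replicate 1 the highest for 7 and 8. Ptprc was thus above the background mark on all 3 arrays of cells sorted for YFP. The part of leukocytes in the class II values was not tested.

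Few markers of the other leukocyte types listed differed. Of 9 dendritic cell genes 0 passed; the integrin gene Itgax was higher by 2.51 ± 0.51 (SE; adjusted p of 0.052 in limma), from values under the mark in all 3 K8wt samples, and the transcription factor gene Batf3 by 2.40 ± 0.64 (0.089). In that list 2 members had an unadjusted p under 0.05 upward and 1 downward (13.4% and 13.0% of all genes). None of 9 B cell genes passed in limma, none had an unadjusted p under 0.05, and the mean level of the list was 2.96 to 3.002 in K8wt cells and 2.62 to 3.16 in tumors, under the mark; the largest differences among them were within 0.40 in size. Of 14 T and NK cell genes 0 passed, with 3 means higher and 11 lower. At an unadjusted p under 0.05, 0 of them were higher and 2 lower, against 13.4% and 13.0% of all genes.

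Luminal identity differed between the groups too. Of 15 luminal genes 2 rose and 4 fell (background 2.52% and 1.39%), and the list's mean level was 7.84, 8.17 and 8.38 in K8wt cells against 7.07, 6.37 and 6.67 in tumors. Foxa1, Esr1 and Pgr, transcription factor genes of hormone-sensing cells, fell by 3.07, 2.67 and 2.60, and Kit, a receptor of luminal progenitors, rose by 2.42. Pgr was under the mark in all 3 tumors, so its size is a difference against background. Between 1 (without K8wt replicate 4) and 3 luminal genes fell when an array was left out, and 13 when centred on housekeeping genes. Esr1 passed in all 6 fits that left out an array; Pgr lost its call without K8wt replicate 2 or 4 or tumor 23, Foxa1 (-3.52 to -2.87) without any array except tumor 23, and Kit (2.05 to 2.73) without any array except tumor 24. The luminal keratin Krt8 read 10.31 to 11.12 in K8wt cells and 7.76 to 9.41 in tumors, above background on all arrays. The 12 skeletal muscle genes averaged 3.6004, 3.65 and 3.45 in K8wt cells and 8.58, 3.61 and 5.78 in tumors 23, 24 and 25, so the list was far higher in tumors 23 and 25 than on the other arrays. Of 10 fibroblast genes 2 rose, Fbln2 (2.96 ± 0.56, SE) and Pdgfrb (2.56 ± 0.43), and 0 fell. Their means were higher in tumors for 9 genes and lower for 1, Dcn (-2.76 ± 0.56, adjusted p of 0.052 in limma). Of 9 basal genes 0 rose and 1 fell, Myh11 (-1.40 ± 0.22). Fbln2 passed in 0 of the 6 fits that left out an array, Pdgfrb in 2 and Myh11 in 1. Of 9 endothelial and 7 adipocyte genes 0 passed in limma. At an unadjusted p under 0.05, 0 were higher and 2 lower, both adipocyte genes, against 13.4% and 13.0% of all genes. The part of these differences in the MHC values was not tested.

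Class I means were mostly lower in tumors, those of both chains of the classical molecule included. B2m, the light chain of class I molecules, read 12.63, 11.99 and 12.70 in K8wt cells and 11.67, 12.02 and 11.07 in tumors. Tumor 24 reached K8wt replicate 2, and the other tumors were below all controls. The difference was -0.85 ± 0.32 (SE), 1.81-fold lower, with a 95% confidence interval of -1.61 to -0.10, and limma's adjusted p was 0.158.

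H2-K1, the classical heavy chain that was measured, read 10.12, 9.84 and 10.02 in K8wt cells and 9.88, 9.12 and 9.13 in tumors. Tumor 23 lay inside the range of the controls and tumors 24 and 25 lay below it. The difference was -0.61 ± 0.25 (SE; adjusted p of 0.187 in limma). Its neighbour H2-K2, a pseudogene, read 5.37, 5.68 and 5.05 against 4.73, 5.02 and 4.20, without overlap (-0.72 ± 0.28, adjusted p of 0.170).

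H2-T23 encodes Qa-1, which shows leader peptides of other class I chains to receptors of NK cells. It read 5.32, 4.05 and 4.70 in K8wt cells and 3.50, 3.19 and 3.46 in tumors. The groups did not overlap, and tumor values were near the mark, above it in 2 of 3. The difference was -1.31 ± 0.33 (SE), 2.47-fold, with the lowest adjusted p of class I, 0.080 in limma. With array weights it passed in limma (-1.44, adjusted p of 0.048). It also passed centred on housekeeping genes (-1.93, 0.016), a scaling that lowered the difference of every gene. Over all alternatives the adjusted p ran from 0.016 to 0.18.

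H2-M9, a nonclassical gene, had the widest spread among controls of the 43 members. It read 4.25, 6.18 and 2.58 in K8wt cells and 2.26, 2.19 and 2.20 in tumors, all tumors being under the mark, as was K8wt replicate 4. The mean difference of -2.13 ± 0.82 (SE; adjusted p of 0.170 in limma) was carried by K8wt replicate 2: without it the difference was -1.20, and without replicate 4 it was -3.005.

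H2-Q4 read 5.21, 5.54 and 5.92 in K8wt cells and 4.44, 5.21 and 4.68 in tumors, with tumor 24 level with K8wt replicate 1 (-0.78 ± 0.28, SE; adjusted p of 0.152 in limma). Its dimmer probe set, with values of 2.84 to 3.53, gave 0.22 ± 0.23 and was under the mark in all 3 K8wt samples and in tumor 24, so it gives no direction.

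A pair of class I genes had tumor values above every control. H2-M3, whose product shows formylated peptides of bacteria and mitochondria, read 5.41, 5.10 and 5.57 in K8wt cells and 6.43, 6.28 and 5.75 in tumors. Tumor 25 lay close to the highest control. The difference was 0.79 ± 0.24 (SE), 1.73-fold, and limma's adjusted p was 0.115.

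H2-Q10, a class I chain that is secreted, read 5.52, 6.20 and 5.42 in K8wt cells and 6.62, 6.28 and 7.05 in tumors, a difference of 0.93 ± 0.30 (SE; adjusted p of 0.122 in limma). Its dimmer probe set gave -0.19 ± 0.32. The higher tumor values of this gene thus rest on 1 of its probe sets.

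The other 15 class I genes, of which 10 were at background on all arrays, had differences between -0.48 and 0.34, and none had an adjusted p under 0.17. H2-M1, H2-M10.1, H2-M10.5 and H2-M5 had no overlap between groups; of these, H2-M5 was above the mark on 4 arrays and the others on none. H2-Ke6, the gene apart, a dehydrogenase gene inside the region, differed by 0.02 ± 0.32 (SE).

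The supply of peptides to class I did not move as a unit. Tap1, a subunit of the peptide pump, read 8.40, 8.65 and 8.29 in K8wt cells and 7.57, 8.82 and 7.14 in tumors. Tumor 24 was the highest array and tumors 23 and 25 the lowest, so the difference of -0.60 ± 0.43 (SE; adjusted p of 0.384 in limma) became -1.09 ± 0.24 without tumor 24 (adjusted p of 0.058) and -0.25 without tumor 25.

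Tap2, the partner subunit, was even within groups: 6.998, 6.86 and 6.97 in K8wt cells and 6.71, 6.59 and 6.52 in tumors. All tumors were below all controls, by -0.34 ± 0.16 on average (SE; adjusted p of 0.228 in limma). Tapbp, which encodes tapasin and bridges class I to the pump, read 7.62, 7.61 and 8.06 against 7.34, 7.26 and 8.01, with tumor 25 inside the controls (-0.22 ± 0.26, SE).

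Psmb8, Psmb9 and Psmb10 encode the catalytic subunits of the immunoproteasome, which interferon gamma induces. Psmb8 read 7.43, 7.61 and 7.54 in K8wt cells and 7.88, 7.03 and 6.63 in tumors 23, 24 and 25 (-0.34 ± 0.33, SE). Psmb9 read 8.39, 8.17 and 8.94 against 8.68, 7.81 and 7.79 (-0.41 ± 0.33). Psmb10 read 7.84, 8.31 and 8.31 against 9.19, 8.09 and 7.72 (0.18 ± 0.39).

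Tumor 23 was the highest and tumor 25 the lowest tumor for each of the 3 subunits, and the groups overlapped for each. Without tumor 23 the difference of Psmb10 was -0.25. Their constitutive counterparts, chosen after their values were seen, differed by 0.05 ± 0.30 (SE; Psmb5), 0.90 ± 0.36 (Psmb6) and -0.32 ± 0.37 (Psmb7).

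Both transcriptional coactivators were highest in tumor 24. Nlrc5, the class I coactivator, read 4.999, 3.77 and 4.71 in K8wt cells and 4.84, 6.58 and 3.94 in tumors. Tumor 24 stood above all others, and without it the mean difference went from 0.63 ± 0.69 (SE) to -0.10. Ciita, the class II coactivator, read 3.91, 4.40 and 4.56 against 4.12, 5.14 and 4.20, with the other tumors inside or near the controls (0.20 ± 0.33, and -0.13 without tumor 24).

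Tumor 24 was thus the highest array for Nlrc5, Tap1 and Ciita, while it was the lowest of the tumors for H2-T23. The SD between arrays was larger in tumors than in K8wt cells for 8 of 8 supply and regulator genes. That held for 51.5% of all genes, 12 of 23 class I genes and 5 of 11 class II genes. Among the 12672 genes with means above the mean mark, where all 8 lie, it held for 58.4%. The median SD of the 8 genes was 0.60 in tumors and 0.27 in K8wt cells, against 0.43 and 0.34 for those 12672 genes.

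**Figure D4:**
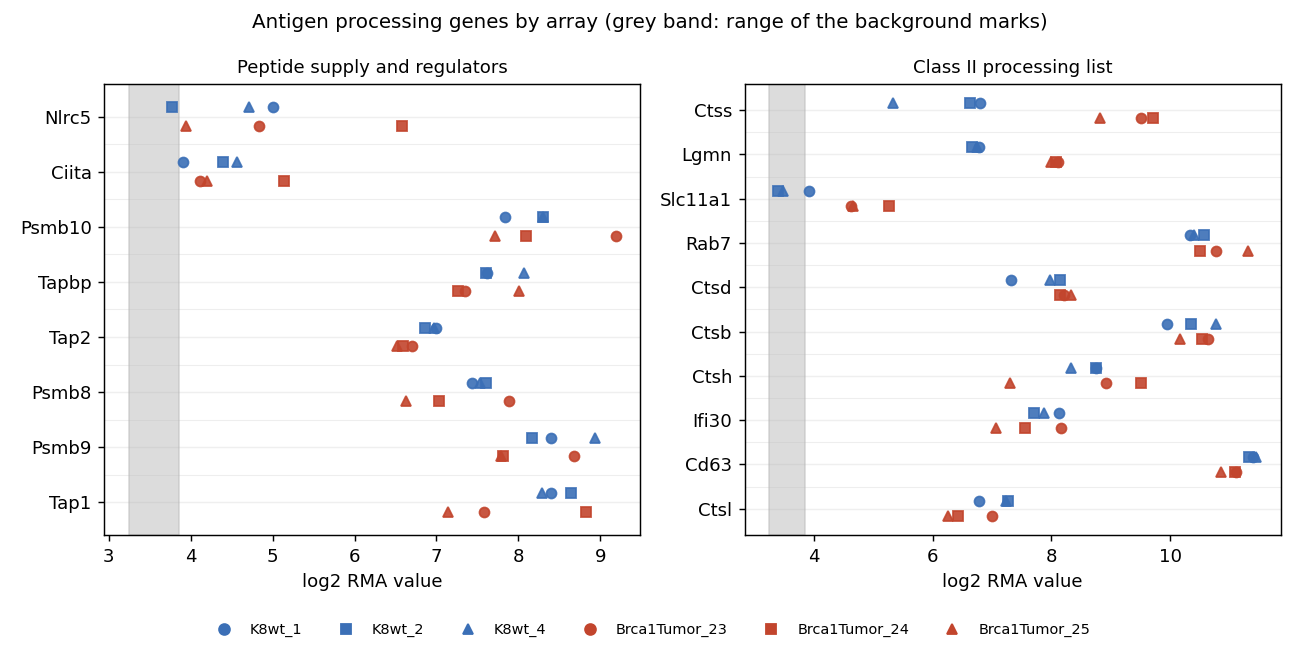
Log2 value on each array of the 8 peptide supply and regulator genes (left) and of the 10 measured genes of the class II processing list (right); blue marks are K8wt replicates, red marks tumors, and the grey band spans the background marks. Tumor 24 (red squares) is highest for Nlrc5, Ciita and Tap1, and on the right Ctss and Lgmn are higher in all 3 tumors than in any K8wt sample.

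Genes that act beside the members were taken from lists of the pathway. Among 10 measured genes of class II processing, 2 rose and 0 fell, where 2.52% of all genes rose and 1.39% fell, with a list median of 0.26. Ctss, the protease that trims the invariant chain, read 6.81, 6.63 and 5.33 in K8wt cells and 9.51, 9.72 and 8.82 in tumors. The tumors were far above the controls, and Ctss rose by 3.09 ± 0.45 (SE; adjusted p of 0.024 in limma).

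Lgmn, the endosomal protease legumain, read 6.78, 6.66 and 6.76 in K8wt cells and 8.11, 8.09 and 7.99 in tumors. Both groups were tight, and Lgmn rose by 1.33 ± 0.15 (SE; adjusted p of 0.016 in limma). Both genes lost their call without any 1 of K8wt replicates 1, 2 and 4 and tumor 23 (Ctss 2.63 to 3.37, adjusted p up to 0.070; Lgmn 1.29 to 1.35, up to 0.071), and Lgmn also when centred on housekeeping genes (0.70, 0.155). Both proteases are also known from macrophages, whose markers rose in the same tumors; that part was not tested.

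Of 14 class I loading partners, Tpp2, a cytosolic peptidase, rose by 1.41 ± 0.28 (SE; adjusted p of 0.049 in limma) and 0 fell. It read 6.64, 5.61 and 6.33 in K8wt cells and 7.59, 7.51 and 7.71 in tumors. Tumors were above all controls, but the call was lost without any 1 array (1.12 to 1.64, adjusted p of 0.065 to 0.125) and with repeated quantile normalization (1.18, 0.064), cyclic loess (1.21, 0.064), a trended robust prior (1.41, 0.061) and housekeeping centring (0.79, 0.153). The list's median difference was 0.30, with 10 means higher and 4 lower.

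None of 13 measured subunits of the standard proteasome passed in limma, and their median difference was 0.33. At an unadjusted p under 0.05, 3 were higher and 0 lower, against 13.4% and 13.0% of all genes. The largest differences were those of Psma7 (1.79 ± 0.49, SE; adjusted p of 0.094) and Psmb1 (0.92 ± 0.37, 0.175).

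Among 22 measured regulators of MHC transcription 0 passed in limma. At an unadjusted p under 0.05, 5 were higher and 2 lower, against 13.4% and 13.0% of all genes. The 2 largest differences were those of genes whose products are known to bind the SXY module. Binding to the promoters shown was not measured. Nfyc, a subunit of NF-Y, read 4.84, 5.36 and 5.58 in K8wt cells and 6.49, 6.28 and 7.22 in tumors (1.40 ± 0.32, SE, adjusted p of 0.064 in limma). Rfxank, a subunit of the RFX complex, read 6.45, 6.61 and 5.82 against 7.87, 6.99 and 7.84 (1.28 ± 0.33, 0.084). Neither overlapped between groups. The other subunits of these complexes, chosen after their values were seen, differed by 0.78 (Nfya), -0.34 (Nfyb), 0.79 (Rfx5) and 0.93 (Rfxap), with adjusted p from 0.143 to 0.576 in limma. Irf2, an interferon regulatory factor gene, had the largest negative difference, -1.27 ± 0.36 (adjusted p of 0.101).

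Of 15 costimulation and checkpoint genes 0 passed in limma. At an unadjusted p under 0.05, 2 were higher and 3 lower, against 13.4% and 13.0% of all genes. Cd48, a ligand of lymphocyte receptors, read 3.37, 3.15 and 2.92 in K8wt cells, under the mark, and 5.93, 4.76 and 4.29 in tumors (1.85 ± 0.42, SE; adjusted p of 0.066). Lgals9, which encodes galectin 9, had a difference of -1.07 ± 0.40 (adjusted p of 0.159).

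Of 10 measured MHC-like genes and ligands of NK receptors, Ulbp1, a ligand of the activating receptor NKG2D, rose by 1.42 ± 0.25 (SE; adjusted p of 0.039 in limma) and 0 fell. It read 3.23, 3.44 and 3.90 in K8wt cells, above the mark only in replicate 4, and 5.30, 4.74 and 4.802 in tumors, all above the mark. The call was lost in each fit that left out 1 array other than tumor 24 (1.25 to 1.61 over the 6 fits, adjusted p up to 0.113), and when centred on housekeeping genes (0.80, 0.118).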

How the data were processed

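Biotin-labelled material was made from total RNA with NuGEN amplification, per the labels' protocols. The deposited log2 values, 1 per probe set and array, were made by the authors with oligo and RMA (background correction, quantile normalization, probe summary), per the submitters' processing notes (versions, build: not given in the sources used here). This method compresses differences near background. Of 41345 probe sets, 23521 name 1 gene, 1814 several and 16010 none in the platform annotation; 23328 of the 23521 matched the RefSeq table of GRCm38.p6. Each of the 22180 genes was represented by its brightest probe set (mean over 6 arrays). Groups were compared with limma 3.58.1 (R 4.3.3; lmFit, eBayes, two-sided, no covariates, no filter), checked on simulated data. Tables and motif searches used Python 3.11.15 and pandas 2.3.3. Groups are as the labels give them, and no batch is recorded in the sources used here.

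The members, lists, background mark and tests were chosen with earlier results of these data known. Named genes are all class II genes, H2-K1, B2m, the supply and regulator genes and the 6 other class I genes with the largest differences (none passed). For most lists, up to 4 called genes are named, or the 2 largest differences where none passed. No gene is named by that rule for the B cell, T and NK cell, endothelial, adipocyte and skeletal muscle lists, where none passed, or for the housekeeping list. Other names were chosen after their values were seen. Alternatives were 2 minimum means (5, or the median of all genes), probe set averaging, single probe sets, 3 scalings, a trended robust prior, array weights, and leaving out each array.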

Additional observations from a re-analysis of the deposited data

How the results depend on the processing

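The class II minus class I gap of 0.64 was 1.60 with a minimum mean of 5 and 1.32 with the median as the minimum, where fewer dim genes enter; leaving out single arrays gave 0.58 to 0.74. The median difference of all genes was -0.12 as reported and -0.01, 0.03 and -0.74 with repeated quantile normalization, cyclic loess and housekeeping centring. Relative to it, class II stood at 0.42, 0.37, 0.37 and 0.42 and class I at -0.21, -0.17, -0.16 and -0.21, but unadjusted for it the class II median turned to -0.32 under housekeeping centring. That centring gave 2303 called genes (867 as reported) and 3 class I calls, H2-M9 (-2.75), H2-Q4 (-1.41) and H2-T23 (-1.93). Under it, 17987 of 22180 genes were lower in tumors (12933 as reported), and the housekeeping list itself read higher there. Array weights gave 1324 called genes, 1 class I call (H2-T23) and 1 class II call (H2-DMa). Leaving out single arrays gave 72 (without K8wt replicate 4) to 1200 called genes (without tumor 24), with 138 and 170 without K8wt replicates 1 and 2 and 142 and 375 without tumors 23 and 25; fewer arrays also leave fewer degrees of freedom. In those 6 fits 0 members passed in limma. The cause of the other changes was not tested. Among the 43 members, the difference changed sign for 6 under quantile normalization again, 6 under cyclic loess, 7 under housekeeping centring and 1 with array weights, and for 0 to 5 when an array was left out. No paired analysis was possible because the groups share no replicate numbers.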
